A study of Rattus norvegicus with 6 samples.

Results

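The genes described here are 10 regulators of the BCL2 family of cell death proteins, chosen by symbol from a table of 21857 genes. Of these 10 symbols, 9 had a row in the counts and 8 had enough reads to be tested. Mcl1 was not analysed here, and Bik fell below the filter on low counts. The counts come from rat adipose-derived mesenchymal stem cells of the Sprague Dawley strain, stromal cells with the capacity to form fat, bone and cartilage cells. All cells were grown in a high-glucose medium made without branched chain amino acids (BCAA, the group of leucine, isoleucine and valine) and with 10% fetal bovine serum. One group received 3.432 mM BCAA and the other received vehicle, both for 12 h and both with 100 µM hydrogen peroxide, an oxidant that can kill cells. Each group had 3 libraries, and the labels do not say whether these came from separate animals or cultures, so the tests measure only how far the libraries differed, which may be technical. Values after ± are SDs over the 3 libraries of a group.

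BCL2 family proteins decide whether the outer mitochondrial membrane stays closed. Protective members such as BCL2 and BCL-xL bind the pore formers BAX and BAK and hold them inactive. BH3-only proteins, named for the single BCL2 homology domain they share with the rest of the family, sense stress and either occupy the protective members or activate the pore formers. Once the membrane opens, cytochrome c escapes and APAF1 assembles the caspase-activating complex. Much of the control acts on the proteins, through cleavage, phosphorylation and turnover, which read counts do not measure.

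Library totals ran from 12802663 to 15654060 counts with BCAA and from 12725344 to 15739731 with vehicle. Vehicle replicate 1 stood apart from the other 5 libraries, with a score of 26.8 on the first principal component, where the others lay between -15.2 and 0.54. Mitochondrially encoded genes took 5.60% to 6.24% of the counts with BCAA and 4.91% to 6.58% with vehicle, the highest share being that of vehicle replicate 1. The 9 stromal markers with a row summed to between 12808 and 13686 CPM (counts scaled to a common library size) with BCAA and between 12110 and 14705 CPM with vehicle. The 6 leukocyte markers summed to 160.0 to 171 CPM with BCAA and 164 to 173 CPM with vehicle. The T cell gene Cd3e was at 0 in every library, but other leukocyte genes were counted in all of them. With BCAA, Cd14 averaged 100.1 CPM, Cd68 31.4, Csf1r 17.9 and Ptprc 16.2. With vehicle they averaged 108, 29.6, 16.8 and 15.1 CPM. Endothelial markers summed to 3.36 to 4.93 CPM with BCAA and 4.08 to 5.52 CPM with vehicle, while adipocyte markers summed to 5.77 to 6.65 CPM with BCAA and 3.87 to 5.87 CPM with vehicle. Epithelial and mesothelial markers, nearly all of it mesothelin (Msln), summed to 68.2 to 72.3 CPM with BCAA and 59.4 to 72.8 CPM with vehicle, with Krt5 at 0. The 5 smooth muscle markers, most of it transgelin (Tagln), summed to 601 to 629 CPM with BCAA and 880 to 945 CPM with vehicle. This sum did not overlap between the groups. Tagln and Acta2 were lower with BCAA at an edgeR adjusted p under 0.05 (0.00036 and 0.00059), as were 0.171% of all genes tested. The parts of these markers and of vehicle replicate 1 in the results below were not tested, but member results without that library are given. In bulk RNA, fewer cells of a type and less RNA per cell cannot be told apart.

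The upstream sequences shown are those of the BH3-only genes Bid, Bcl2l11 and Bad, on which most of the text below dwells. The groups did not overlap for these 3 genes, nor for the sparsely counted Bcl2, as was so for 9.29% of all genes tested in the higher and 8.76% in the lower direction. RefSeq windows on rat assembly GRCr8 were found by symbol for 7 of the 10 genes. Each line gives the 250 bases before a gene's annotated start, 5′ to 3′ on the gene's strand. Capitals mark GC boxes (GGGCGG, the core bound by Sp1-type factors) and FOXO elements (GTAAACA), searched on both strands.
Bid, chr4:155808320-155808569, minus strand: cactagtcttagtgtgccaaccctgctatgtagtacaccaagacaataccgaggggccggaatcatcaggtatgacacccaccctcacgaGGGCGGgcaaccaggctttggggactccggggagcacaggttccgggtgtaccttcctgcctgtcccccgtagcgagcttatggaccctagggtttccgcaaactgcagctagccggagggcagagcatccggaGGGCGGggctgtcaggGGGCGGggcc
Bcl2l11, chr3:135819792-135820041, plus strand: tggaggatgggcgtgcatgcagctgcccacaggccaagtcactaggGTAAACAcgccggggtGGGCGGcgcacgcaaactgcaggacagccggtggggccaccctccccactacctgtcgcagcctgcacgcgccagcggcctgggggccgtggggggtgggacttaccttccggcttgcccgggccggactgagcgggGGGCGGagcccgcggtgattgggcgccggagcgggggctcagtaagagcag
Bad, chr1:213562864-213563113, plus strand: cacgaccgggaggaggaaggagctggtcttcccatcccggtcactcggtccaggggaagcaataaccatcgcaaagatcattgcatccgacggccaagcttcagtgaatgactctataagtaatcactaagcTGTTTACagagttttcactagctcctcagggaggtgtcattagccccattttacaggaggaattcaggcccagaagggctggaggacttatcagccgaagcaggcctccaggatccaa

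GC boxes numbered 3 in the Bid window, 2 in the Bcl2l11 window and 1 in the Bak1 window, and the Bad, Bcl2 and Bcl2l1 windows had no match. A GC box was present in 30.5% of the 33469 RefSeq windows of this length. The FOXO element was found in the Bcl2l11 window, 204 to 198 bases before the start, and in the Bad window on the opposite strand, 118 to 112 bases before the start, against 3.21% of all windows. The Bcl2l11 window was 72.0% G and C with 22 CpG dinucleotides, more than in 86.3% of windows, while Bid had 13 and Bad 8. A composite element for ATF4 and CHOP (TGATGNAAN, both strands, in 3.38% of windows) occurred in the Bcl2 window and in 3 of the 4 Bcl2l1 windows, 2 of which overlap and share the same match. The p53 decamer, present in 6.64% of windows, had no match in the windows of these genes. These matches are descriptions of letters and not of binding.

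**Figure D1:**
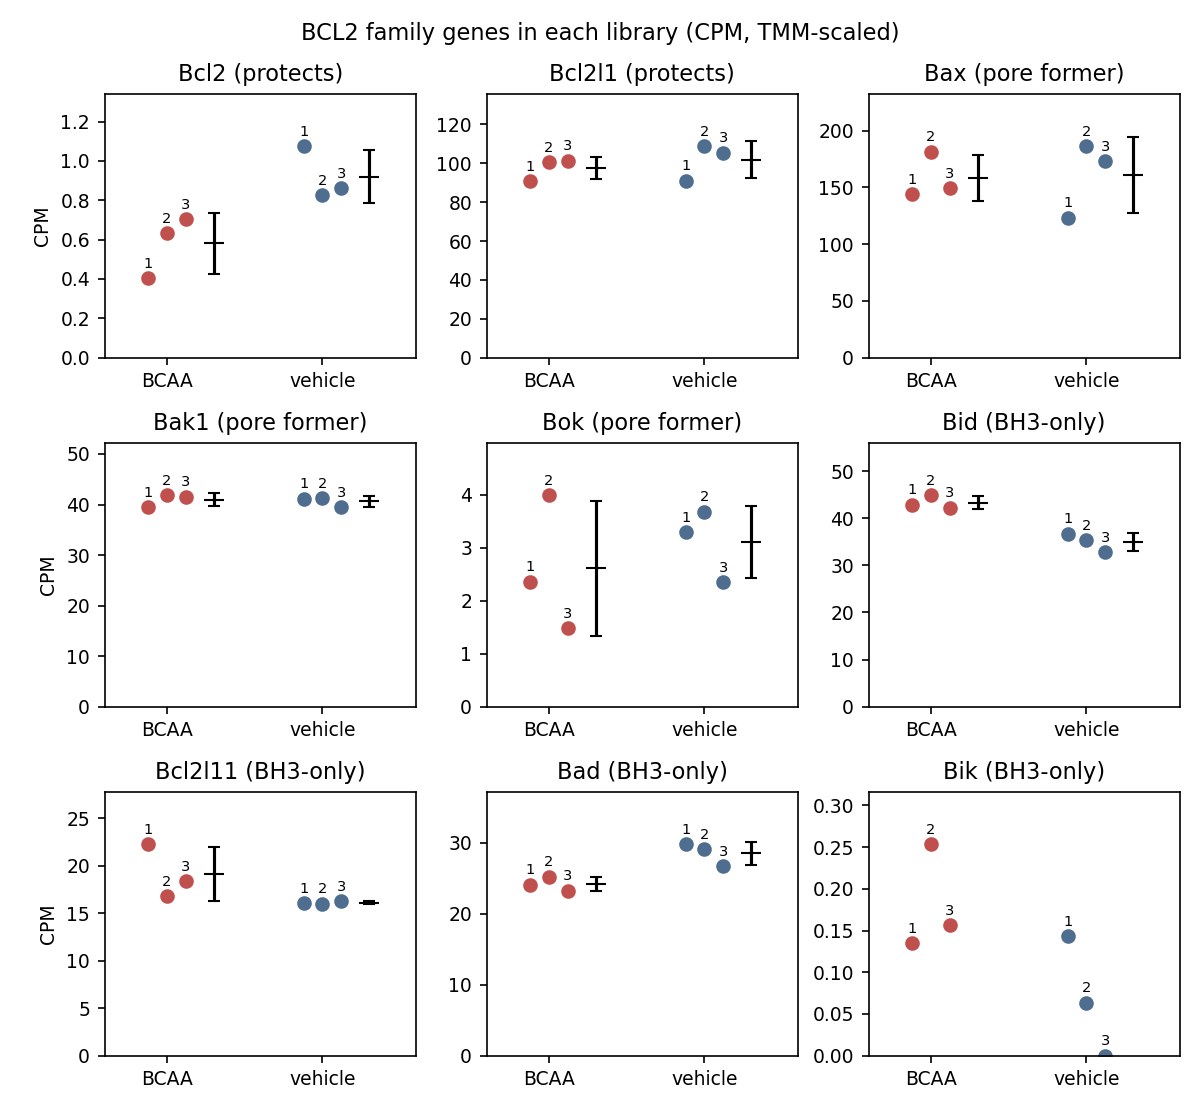
CPM of the 9 measured BCL2 family genes in each library, BCAA left and vehicle right, with replicate numbers above the points and black bars for mean ± SD (n = 3; no bar for Bik, which had 0 to 4 counts). Bid and Bcl2l11 were higher, and Bad and Bcl2 lower, in all BCAA libraries than in all vehicle libraries, while the groups of the other 5 genes overlapped.

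Across the family no gene passed the test. Of the 8 tested genes, 0 were called higher and 0 lower with BCAA at an adjusted p under 0.05 (edgeR's quasi-likelihood test with Benjamini-Hochberg adjustment over all 12298 genes), where 0.0569% of all genes were called higher and 0.171% lower. DESeq2 gave an adjusted p for 6 of them, all but Bcl2 and Bok, and called 0, with 0.755% of genes called higher and 0.998% lower. At an unadjusted p under 0.05 there was 1 gene higher, Bid, and 1 lower, Bad, where 5.95% of all genes were higher and 5.84% lower at that level. The median log2 fold change of the 8 genes was -0.04, against 0.00 for all genes tested, with 3 genes higher and 5 lower in sign. The groups did not overlap for 2 genes higher and 2 genes lower with BCAA, against the shares of 9.29% and 8.76% of all genes given above. With so few genes these counts describe the family and set nothing apart as particular to it.

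Among the BH3-only genes, Bid encodes the protein that caspase-8 cleaves to carry death receptor signals to mitochondria. Bid stood at 42.9, 44.9 and 42.2 CPM in BCAA replicates 1 to 3, against 36.7, 35.3 and 32.8 CPM in vehicle replicates 1 to 3. The lowest BCAA library lay above the highest vehicle library, and the libraries of each group lay close together. Bid averaged 43.3 ± 1.39 CPM in BCAA libraries and 35.0 ± 1.97 CPM in vehicle libraries (SD, n = 3 each). Its difference on the log2 scale was 0.31 (SE 0.08, 95% confidence interval 0.13 to 0.49), a 1.24-fold higher level. The edgeR adjusted p was 0.15, and Bid ranked 218 of 12298 genes by p. Without vehicle replicate 1 the log2 fold change was 0.35 and the adjusted p was 0.022, and Bid was then the only one of the 8 genes called, in a fit that called 1.73% of genes higher and 2.2% lower. Leaving out any one of the other 5 libraries gave adjusted p-values from 0.33 to 0.44.

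Bcl2l11 encodes BIM, a BH3-only protein that binds every protective member and is induced when growth factors are withdrawn. Its level was 22.3, 16.8 and 18.4 CPM with BCAA, against 16.0, 16.0 and 16.3 CPM with vehicle. All BCAA libraries lay above all vehicle libraries, yet BCAA replicate 2 lay only just above them and BCAA replicate 1 was far the highest. The vehicle libraries varied by 1.02% (coefficient of variation, the SD as a share of the mean) and the BCAA libraries by 14.7%. On the log2 scale the difference was 0.25 (SE 0.12, 95% confidence interval -0.02 to 0.51) with an edgeR adjusted p of 0.45. It rested in good part on 1 library, since it was 0.12 without BCAA replicate 1 (adjusted p = 0.86) and 0.34 without BCAA replicate 2, while it was 0.25 without vehicle replicate 1. In assembly GRCr8 the protein-coding gene Acoxl overlaps Bcl2l11, but it had only 1 to 2 counts per BCAA library and 2 to 3 per vehicle library.

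Bad encodes a BH3-only protein that neutralises BCL-xL and BCL2 unless survival kinases phosphorylate it and 14-3-3 proteins retain it. Bad stood at 24.1, 25.2 and 23.2 CPM with BCAA, against 29.8, 29.1 and 26.7 CPM with vehicle. Every BCAA library lay below every vehicle library. Bad averaged 24.2 ± 0.987 CPM in BCAA libraries and 28.6 ± 1.62 CPM in vehicle libraries (SD, n = 3 each). Its difference on the log2 scale was -0.24 (SE 0.10, 95% confidence interval -0.45 to -0.03) with an edgeR adjusted p of 0.35, and without vehicle replicate 1 it was -0.21 (adjusted p = 0.28). Bik, a BH3-only gene whose protein sits mainly at the endoplasmic reticulum, was nearly silent. It had 2, 4 and 2 counts with BCAA and 2, 1 and 0 counts with vehicle. The group sums were 8 counts with BCAA (95% Poisson interval 3.45 to 15.8) and 3 with vehicle (0.62 to 8.77), so no difference was detectable at this depth. The 0 count in vehicle replicate 3 allows a level of up to 0.235 CPM, taken as 3 counts. Intervals on counts cover counting error only.

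**Figure D2:**
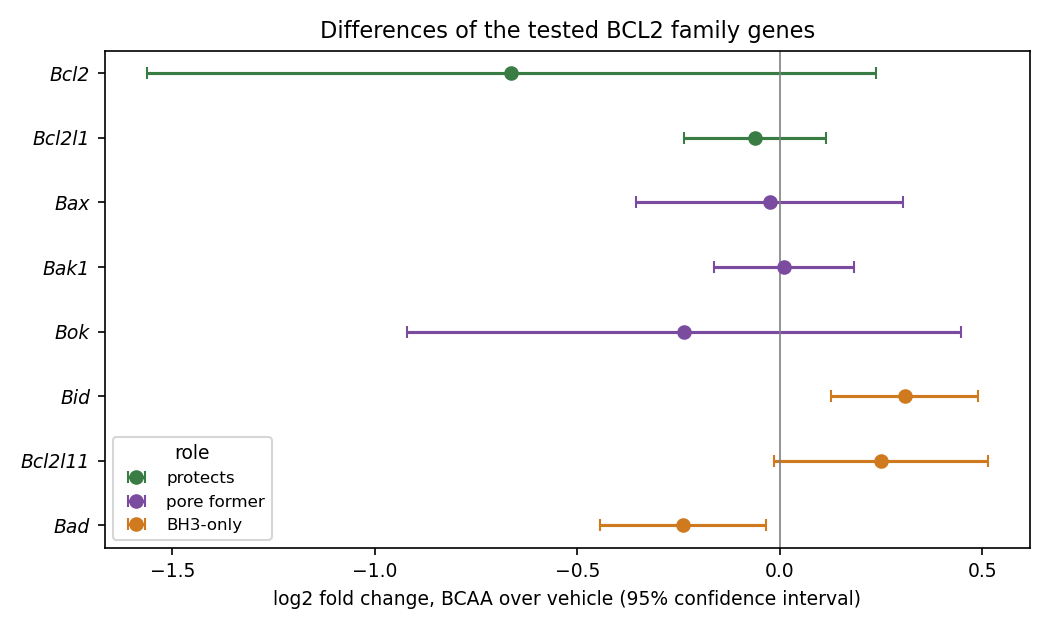
Log2 fold changes of the 8 tested genes, BCAA over vehicle, with 95% confidence intervals from edgeR, coloured by role. The intervals of Bid (0.13 to 0.49) and Bad (-0.45 to -0.03) exclude 0 before adjustment, while those of Bcl2 and Bok are the widest.

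The opposite signs of Bid and Bad can be read within each library, where scaling plays no part. This ratio was chosen after the values were seen, so it is a description with no test. The count ratio of Bid to Bad was 1.78, 1.78 and 1.81 in BCAA replicates 1 to 3, against 1.23, 1.21 and 1.23 in vehicle replicates 1 to 3. The ratio was higher in every BCAA library than in every vehicle library. That had to be so, since Bid was higher and Bad lower in every BCAA library, and it adds no evidence to those differences. The 95% counting intervals, which cover counting error only, did not meet, the lowest BCAA bound being 1.56 and the highest vehicle bound 1.42. The SD between libraries was 0.021 with BCAA and 0.012 with vehicle, narrower than the counting interval of a single library (1.56 to 2.03 in BCAA replicate 1), so the depth cannot resolve how close the libraries of a group lay. Vehicle replicate 1 was not apart from the other vehicle libraries in this ratio.

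The pore formers gave no separation. Bax stood at 144, 181 and 149 CPM with BCAA, against 123, 186 and 173 CPM with vehicle. The groups overlapped fully and the extremes were both vehicle libraries, with replicate 1 the lowest of the 6. The fitted log2 difference was -0.03 (SE 0.15, 95% confidence interval -0.35 to 0.30; edgeR adjusted p = 0.97). Its sign turned with the library left out, with values from -0.18 without vehicle replicate 1 to 0.09 without vehicle replicate 2, and without scaling factors it was 0.00026.

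Bak1 encodes BAK, the pore former that resides on the mitochondrial membrane also in healthy cells. It stood at 39.4, 41.8 and 41.6 CPM with BCAA, against 41.2, 41.3 and 39.4 CPM with vehicle. The 6 values lay within a narrow band in both groups. The fitted log2 difference was 0.01 (SE 0.08), and its 95% confidence interval of -0.16 to 0.18 leaves room for only small differences. The sign turned without BCAA replicate 2 or 3 or vehicle replicate 3, where the values lay at or near 0. In assembly GRCr8 a lncRNA gene overlaps Bak1, and its counts were not examined. Bok, a BAX-like gene less well understood than the other pore formers, stood at 2.36, 3.99 and 1.49 CPM with BCAA, against 3.29, 3.68 and 2.35 CPM with vehicle. Both groups spread widely, the BCAA libraries holding the highest and the lowest value, from 19 and 63 counts. The log2 fold change was -0.24 (SE 0.32), -0.69 without BCAA replicate 2, 0.03 without BCAA replicate 3 and -0.20 without vehicle replicate 1.

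Of the protective genes, Bcl2l1, which encodes BCL-xL, stood at 90.8, 100.4 and 101 CPM with BCAA, against 91.0, 109 and 106 CPM with vehicle. Replicate 1 was the lowest in each group and the groups overlapped. The log2 fold change was -0.06 (SE 0.08, 95% confidence interval -0.24 to 0.11; edgeR adjusted p = 0.82). Counts per gene do not separate the long, protective transcript from the short one, which promotes death. The Bcl2l1 pseudogene Bcl2l1-ps1 took 0 to 4 counts per library, so few reads were placed there. A different pseudogene, Rps2-ps43, overlaps Bcl2l1 in assembly GRCr8, and its counts were not examined. Without vehicle replicate 1 the Bcl2l1 log2 fold change was -0.14 (adjusted p = 0.27).

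Bcl2, the founding protective gene, was scarcely counted in these cells, with 6, 10 and 9 counts with BCAA and 15, 13 and 11 counts with vehicle. All BCAA libraries lay below all vehicle libraries. The group sums were 25 counts with BCAA (95% Poisson interval 16.2 to 36.9) and 39 with vehicle (27.7 to 53.3), and these intervals overlap. The log2 fold change of -0.66 was the largest in size among the 8 genes and also the least precise (SE 0.42, 95% confidence interval -1.56 to 0.24; edgeR adjusted p = 0.57). Without vehicle replicate 1 it was -0.54. In assembly GRCr8 2 lncRNA genes overlap Bcl2, and no strand setting of the counting is given in the sources used here, so reads of either could be mixed.

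The balance of Bax to Bcl2, often used as a shorthand for readiness to die, was therefore poorly determined. The raw count ratio was 355, 286 and 212 in BCAA replicates 1 to 3, against 115, 226 and 201 in vehicle replicates 1 to 3. BCAA replicate 3 lay below vehicle replicate 2, so the groups overlapped. The means were 284 ± 71.7 with BCAA and 181 ± 58.3 with vehicle (SD, n = 3 each), with no test, and the counting interval of BCAA replicate 1 alone ran from 163 to 969. The size of this ratio depends on transcript lengths, which were not used here. Against the well-counted Bcl2l1, the Bax ratio was 1.58, 1.81 and 1.47 with BCAA and 1.36, 1.71 and 1.64 with vehicle, and the groups overlapped.

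**Figure D3:**
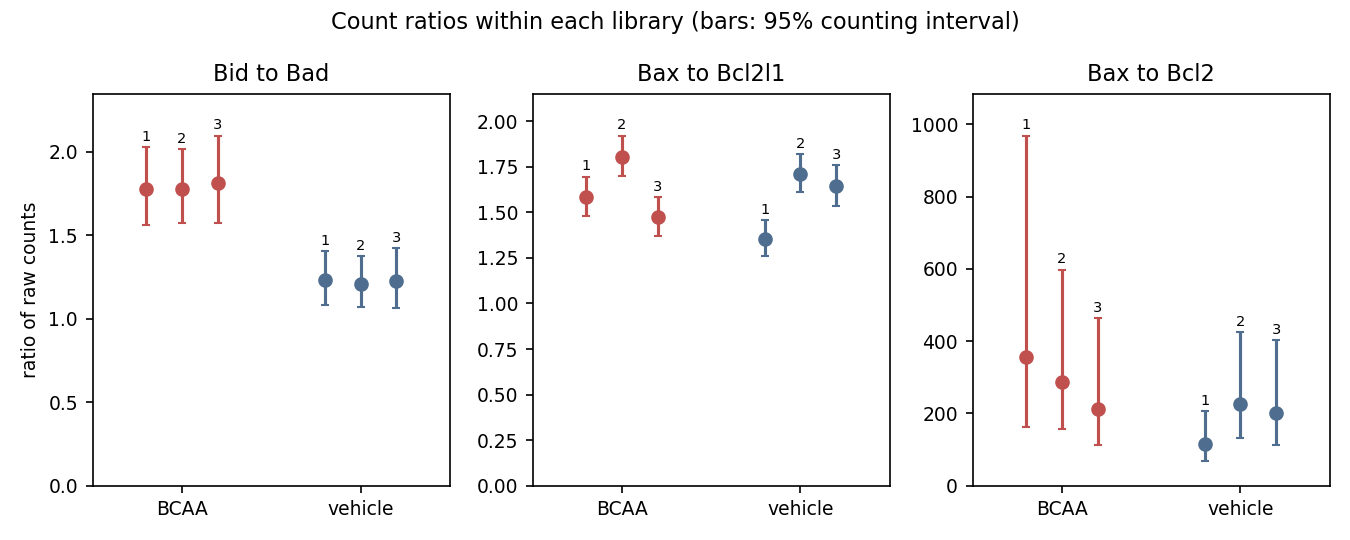
Ratios of raw counts within each library, BCAA left and vehicle right, with 95% counting intervals and replicate numbers. The Bid to Bad ratio lies between 1.78 and 1.81 with BCAA and between 1.21 and 1.23 with vehicle, while both Bax ratios overlap between the groups.

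The genes also differed in how steady they were between libraries of one group. The biological coefficient of variation estimated by edgeR was 6.61% for Bak1, 6.89% for Bid, 7.35% for Bad and 7.44% for Bcl2l1, all under the median of 8.80% over all genes. Bcl2l11 was at 9.25% and Bax at 12.8%, and 77.2% of genes were steadier than Bax. Bcl2 (16.6%) and Bok (22.5%) had the highest estimates, and both had few counts. The Bcl2 libraries varied by 26.9% with BCAA and 14.6% with vehicle, less than counting error alone would give (34.6% and 27.7%). So few counts cannot resolve how much Bcl2 varied between libraries beyond counting. Bax varied more than most genes despite being well counted, and vehicle replicate 1, the library that stood apart, held its lowest value. In both groups replicate 1 was the lowest for Bax and replicate 2 the highest, and the cause was not tested.

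**Figure D4:**
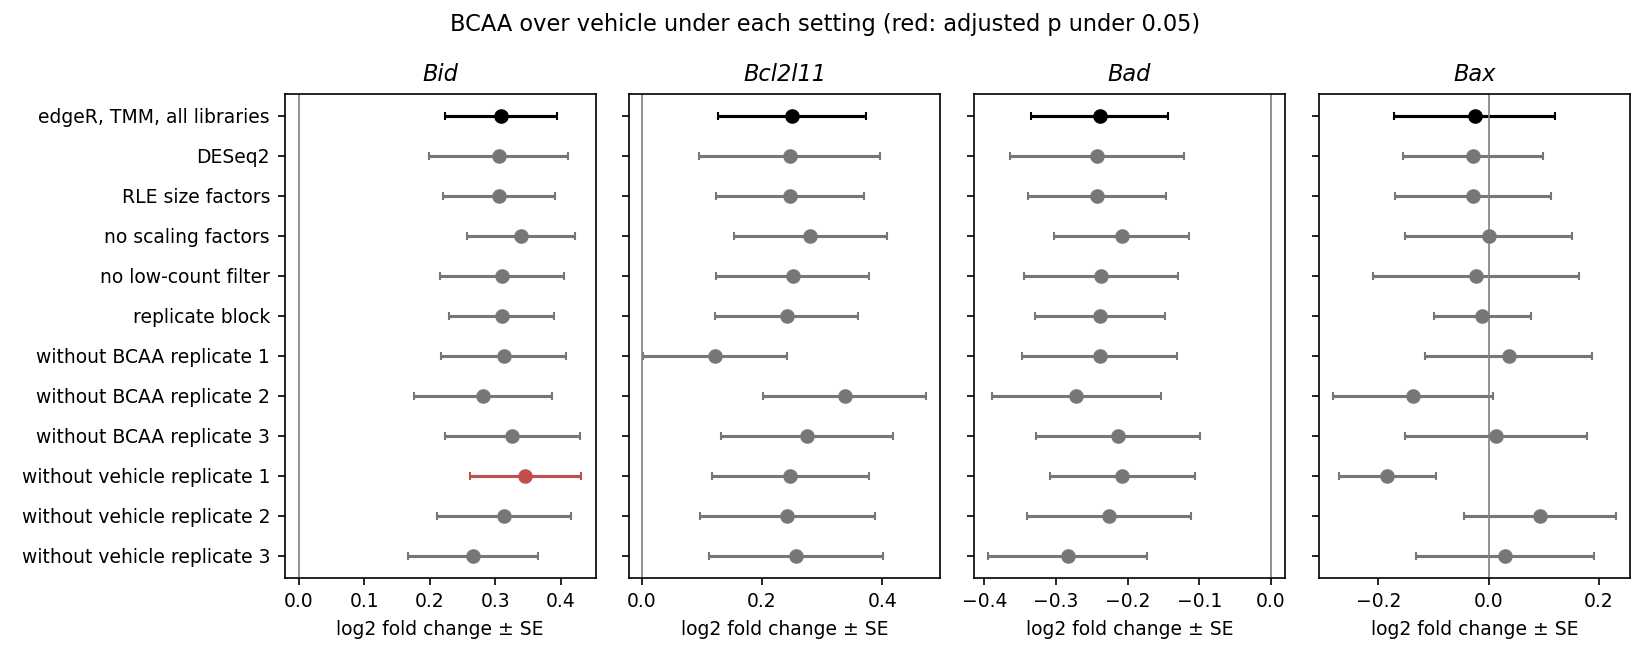
Log2 fold changes of Bid, Bcl2l11, Bad and Bax, BCAA over vehicle, with SE under the fit with all libraries and each alternative; red marks an adjusted p under 0.05. Bid stays between 0.27 and 0.35 and Bad between -0.28 and -0.21, while Bax changes sign.

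Other genes of the same pathway were read from 4 lists. Of 13 further BCL2 family genes, 8 were tested and none was called, with 2 higher and 1 lower at an unadjusted p under 0.05, where 5.95% of all genes were higher and 5.84% lower (median log2 fold change 0.14). Bcl2l13, a mitochondrial family member that acts as a mitophagy receptor, stood at 26.4, 26.2 and 24.1 CPM with BCAA, against 16.6, 21.0 and 22.4 CPM with vehicle. Its groups did not overlap, as for 9.29% of all genes in the higher direction. Its log2 fold change was 0.35 (SE 0.12, edgeR adjusted p = 0.26), and 0.24 without vehicle replicate 1, its lowest library. Bnip3, a hypoxia-induced mitophagy receptor with a BH3-like segment, averaged 335 ± 16.9 CPM in BCAA libraries and 288 ± 28.0 CPM in vehicle libraries (log2 fold change 0.22, adjusted p = 0.27). Bcl2a1, a protective gene induced by NF-kB, averaged 30.5 ± 2.97 CPM in BCAA libraries and 38.0 ± 5.70 CPM in vehicle libraries (log2 fold change -0.32, adjusted p = 0.30), and its log2 fold change was -0.19 without vehicle replicate 1. Bcl2l2, which encodes the protective BCL-w, was at 0.18 on the log2 scale (SE 0.09) with overlapping groups, and at 0.11 without BCAA replicate 1 or without vehicle replicate 1.

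Of 13 transcription factors that control family genes, 12 were tested and none was called (median log2 fold change 0.06). At an unadjusted p under 0.05, 2 were higher and 1 lower, where 5.95% of all genes were higher and 5.84% lower. Foxo3, a factor known to induce Bcl2l11 in rodent cells, stood at 41.1, 32.4 and 29.3 CPM with BCAA, against 22.2, 27.1 and 30.6 CPM with vehicle. The groups overlapped through BCAA replicate 3 and vehicle replicate 3, and the log2 fold change was 0.37 (SE 0.14, edgeR adjusted p = 0.32). Without BCAA replicate 1 it was 0.21. Jun had a log2 fold change of 0.24 (SE 0.10), Nfkb1 of -0.15 (SE 0.06) and Myc of -0.14 (SE 0.07), each without overlap between the groups. Such a lack of overlap was seen for 9.29% of all genes in the higher and 8.76% in the lower direction. The value of Jun was 0.11 without vehicle replicate 1, its lowest library, and that of Myc was -0.090 without vehicle replicate 2.

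Of 19 partners and modifiers of the family proteins, 18 were tested and none was called (median log2 fold change 0.00). At an unadjusted p under 0.05, 3 were higher and 0 lower, where 5.95% of all genes were higher and 5.84% lower. The list holds several regulators of MCL1 protein, whose own gene was not analysed here. Usp9x, a deubiquitinase that stabilises MCL1, averaged 237 ± 22.8 CPM in BCAA libraries and 208 ± 3.80 CPM in vehicle libraries (log2 fold change 0.19, SE 0.07), and its log2 fold change was 0.10 without BCAA replicate 1, its highest library. Fbxw7, a ubiquitin ligase subunit that targets MCL1, had a log2 fold change of 0.38 (SE 0.17), and Gsk3b, a kinase that marks MCL1 for that route, of 0.20 (SE 0.09). Dynll1, the dynein light chain that tethers BIM, was at -0.13 on the same scale (SE 0.06). The adjusted p of these 4 genes ran from 0.33 to 0.44. Of the other regulators of MCL1 listed, which were added after their values were seen, Huwe1 was at 0.01 (SE 0.10), Trim17 at -0.04 (SE 0.14) and March5 at 0.0058 (SE 0.08) on the log2 scale.

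Downstream of the membrane, 13 genes of mitochondrial release and caspase activation were tested and none was called (median log2 fold change -0.01). At an unadjusted p under 0.05, 2 were higher and 1 lower, where 5.95% of all genes were higher and 5.84% lower. Cycs, cytochrome c, stood at 49.3, 48.1 and 47.1 CPM with BCAA, against 57.5, 58.1 and 59.1 CPM with vehicle. Every BCAA library lay well below every vehicle library, with a log2 fold change of -0.27 (SE 0.07, edgeR adjusted p = 0.14). Apaf1, the scaffold that cytochrome c activates, stood at 70.5, 66.0 and 61.1 CPM with BCAA, against 57.1, 53.3 and 51.3 CPM with vehicle. It too showed no overlap, in the other direction (log2 fold change 0.29, SE 0.08, adjusted p = 0.16). Groups did not overlap for 9.29% of all genes in the higher and 8.76% in the lower direction. Vdac1, an outer membrane channel, was at 0.16 on the log2 scale (SE 0.07), and the mitochondrial nuclease gene Endog at -0.39 (SE 0.24), with -0.74 without BCAA replicate 2, -0.23 without BCAA replicate 3 and -0.27 without BCAA replicate 1. Without vehicle replicate 1, 3 genes of the 4 lists were called, in the fit that called 1.73% of all genes higher and 2.2% lower. In that fit Bnip3 rose with a log2 fold change of 0.30 (adjusted p = 0.0036), Apaf1 rose with 0.34 (adjusted p = 0.016), and Cycs had -0.28 and fell (adjusted p = 0.033).

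**Figure D5:**
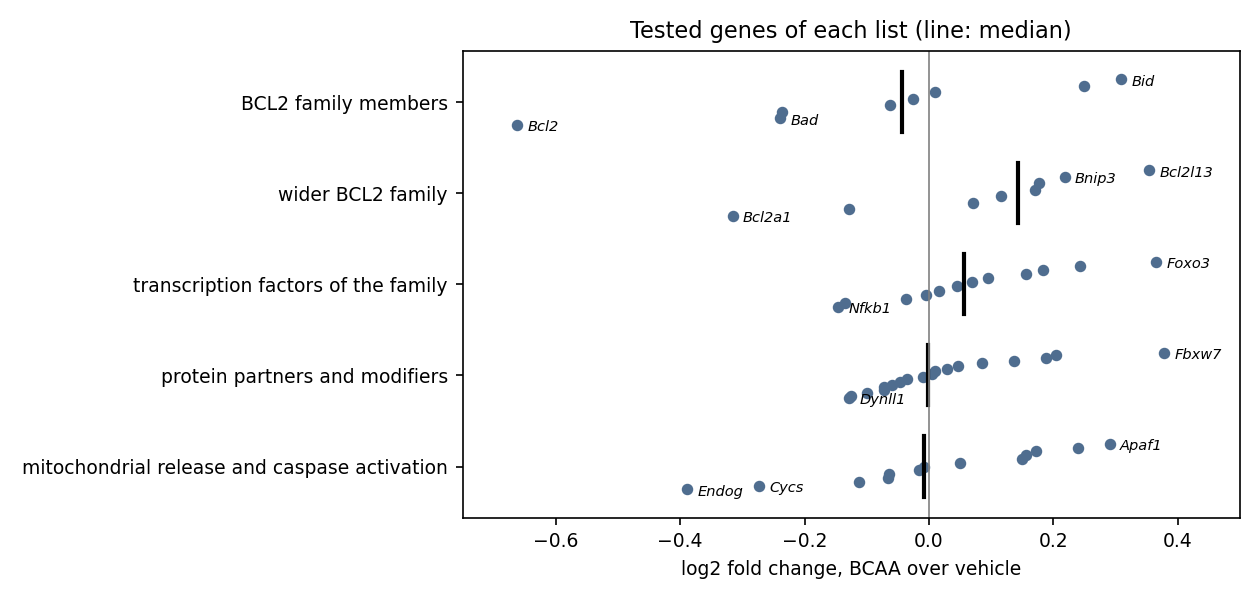
Log2 fold changes, BCAA over vehicle, of the tested BCL2 family genes and of the 4 pathway lists, 1 point per gene with a black line at the median. The medians lie between -0.04 and 0.14, and no gene shown passed an adjusted p of 0.05 with all libraries.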

How the data were processed

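RNA was measured in 6 libraries, 3 with BCAA and 3 with vehicle, grouped by their titles. The authors deposited raw read counts per gene symbol, not normalized or pooled. The submitters' processing notes name Trimmomatic, FastQC, STAR and HTSeq with build rn6. Versions, annotation and strand setting were not given in the sources used here. Of 21857 rows, 5287 had no count. Counts were compared with edgeR 4.0.16 (R 4.3.3): TMM scaling, filterByExpr (minimum count 10, minimum total 15), a robust quasi-likelihood fit on group, and Benjamini-Hochberg adjustment over 12298 genes, called under 0.05. CPM values use TMM-scaled totals. SE is the size of the log2 fold change divided by the square root of F. Alternatives were DESeq2 1.42.0, other scaling, no filter, a replicate block and leaving out each library. Scripts were tested on simulated data. No 2 libraries were copies of one another (chi-square per degree of freedom 2.65 to 18.1 over 15 pairs). Named genes are the 10 family genes and, per pathway list, called genes and the 4 with the smallest p. Huwe1, Trim17 and March5 were named besides, after their values were seen. Genes and lists were chosen with earlier results of these data known. Of 106 listed symbols, 100 had a row, 1 by an older symbol. Promoter letters are from RefSeq, assembly GRCr8, and were matched by symbol.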

Additional observations from a re-analysis of the deposited data

How the results depend on the processing

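With all libraries or any setting but the loss of vehicle replicate 1, 0 of the 8 tested family genes were called. The same held for the genes of the pathway lists, though DESeq2 gave Bcl2 and Bok no adjusted p. Bik was not followed over these settings, also not in the fit with no filter on low counts. Over the settings that leave out 1 library, 0 to 1 family genes, 0 to 3 pathway genes and 7 to 491 of all genes were called, the highest each time without vehicle replicate 1. All genes called numbered 28 with all libraries, 6 with the replicate number as a block, 124 with no filter on low counts and 144 by DESeq2. The labels do not say whether equal numbers mark paired libraries. Equally numbered libraries had deviations from their group means that correlated at -0.07, 0.11 and -0.15, but these few values cannot decide it. Total counts were alike at equal numbers, at 14482260, 15654060 and 12802663 with BCAA and 14484051, 15739731 and 12725344 with vehicle. With the block the SE was 0.09 for Bax, 0.25 for Bok and 0.44 for Bcl2, against 0.15, 0.32 and 0.42 without it. No tested family gene was called with or without the block, so the calls cannot decide it either. Among the named genes followed over these settings, only Bax, Bak1 and Bok changed sign. Huwe1, Trim17 and March5 were not followed. Leaving out 1 library gave log2 fold changes of -0.184 to 0.0928 for Bax, -0.0108 to 0.0341 for Bak1 and -0.686 to 0.0255 for Bok, and Bax was at 0.00026 without scaling factors. The difference in mean Bax to Bcl2 ratio was 103.9 with all libraries and 68.5 to 140.2 with 1 left out. The cause of these shifts was not tested. Depth limits Bcl2, Bok and Bik, with at most 63 counts in any library.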
